A study of Homo sapiens with 8 samples.

Results

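Matriptase, encoded by ST14, and a set of protease inhibitors of epithelial surfaces were followed across 4 groups of BEAS-2B cells, a human bronchial epithelial line immortalised with a viral antigen. The genes were ST14, PRSS8, SPINT1, SPINT2, SERPINB5, SLPI and PI3, taken by symbol from the count files, where 7 of 7 were found among 50006 genes. They were chosen by their levels over the 4 groups, which were already known, so those levels are given as a description and not as tests. RNA sequencing counts were available for 8 libraries, 2 in each group, taken 4 h after exposure. The groups were aC (fibrinogen αC domain), FCP (Der m 1-derived FCPs, Der m 1 being an allergen that Dermatophagoides microceras, a house dust mite, makes), FBG (fibrinogen) and Mock (PBS), with aC, FCP and FBG each given at 4 ng/µl. All groups shared the line, labelled wild type, and a serum-free medium. How the αC domain was prepared and what FCP stands for are not given in the sources used here. The labels call the libraries biological replicates without saying whether they came from separate cultures, so p-values reflect library-to-library spread that may be only technical.

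Matriptase is a serine protease held in the membrane of epithelial cells, where it cuts other membrane and matrix proteins. It works beside prostasin, the product of PRSS8, and each can take part in activating the other. Its activity is held in check by the Kunitz-domain inhibitors HAI-1 and HAI-2, the products of SPINT1 and SPINT2. SERPINB5 encodes maspin, a serpin of epithelial cells that is not known to block proteases in the usual serpin way. SLPI and PI3, which encodes elafin, give small secreted inhibitors with a WAP domain, best known in airways for blocking neutrophil elastase.

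Total counts per library were 22248780 to 22258791 in aC, 21680688 to 21715092 in FCP, 15137196 to 15144403 in FBG and 16553366 to 16561302 in Mock. Levels are CPM, the counts of a gene relative to the library size, scaled by TMM, edgeR's correction for library composition, or TPM, which also divides by exon length. The floor, 3 counts over both libraries of a group, was 0.0634 CPM in aC, 0.0655 in FCP, 0.101 in FBG and 0.1 in Mock, and it is the level set against a group at 0 counts. Ratios compare summed scaled counts of the 2 libraries per group, with exact 95% intervals that cover counting error only.

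The libraries stood apart in their cell type markers before any of these genes was read. Summed levels of 7 basal epithelial markers, such as KRT5, were 2938 to 3011 CPM in aC, 2882 to 2921 in FCP, 409.4 to 423.2 in FBG and 416.1 to 419.2 in Mock. KRT5 itself was at 2.27 and 1.8 CPM in the Mock libraries, low for a line labelled epithelial. KRT17 (348.9 and 347.0 CPM) and ITGA6 (61.3 and 66.1) made up most of the basal sum in those libraries. KRT14, KRT15, DSG3 and NGFR were each at or below 2.33 CPM in both Mock libraries. There, 8 general epithelial markers summed to 2145 to 2147 CPM, mostly KRT7 (1185 and 1177), KRT8 (504.1 and 500.6) and KRT18 (440.9 and 451.9). CDH1, KRT19, AP1M2, RAB25 and CLDN4 were each at or below 7.73 CPM in both Mock libraries. Summed levels of 10 fibroblast markers ran opposite to the basal ones. They were at 562.4 to 567.6 CPM in aC and 579.0 to 579.8 in FCP. In FBG they were at 2003 to 2025 CPM and in Mock at 3316 to 3338. COL1A1 (2143 and 2167 CPM) and VIM (925.4 and 914.5) made up most of the Mock sum. FAP went with the epithelial markers, at 4.54 and 4.93 CPM in FCP and 0.8 in both Mock libraries. LUM was at most 0.539 CPM in any library, and COL3A1 was at 0 throughout. Leukocyte and endothelial markers stayed low, at 11.9 to 32.7 CPM over 9 leukocyte markers, mostly CD68, and 0.933 to 4.1 CPM over 5 endothelial markers. The part of these markers in the results on matriptase and its inhibitors was not tested. The sources used here do not say whether the 4 groups came from the same culture, so a difference between cultures and an effect of the exposure cannot be told apart in any ratio to Mock or FBG. In RNA from whole cultures, fewer cells of a type and less RNA per cell cannot be told apart.

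ST14 was read from chromosome 11 (GRCh38.p14 chr11:130159782-130210362, plus strand), the coordinates the files give for its exons. It stood at 134.3 and 134.7 CPM in aC, 127.7 and 124.1 in FCP, 2.63 and 2.83 in FBG and 1.13 and 1.6 in Mock. The groups did not overlap, and the aC and FCP libraries were far above all 4 others. The ratio was 98.4 (95% counting interval 72.5 to 137.3) for aC against Mock and 92.1 (67.8 to 128.5) for FCP against Mock. Intact fibrinogen gave a small difference, 2.0 (1.36 to 2.98) for FBG against Mock on 81 against 41 counts. The FBG level of ST14 was thus 2.17% of the FCP level.

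PRSS8, the prostasin gene (chr16:31131433-31135727, minus strand), had fewer reads. The counts were 289 and 316 in aC, 262 and 268 in FCP, 7 and 8 in FBG and 3 and 4 in Mock, or means of 12.8, 11.6, 0.505 and 0.233 CPM in that order. Its FBG libraries were above its Mock libraries, but the ratio of 2.17 had an interval of 0.831 to 6.28, so a difference was not detectable at this depth. For aC against Mock the ratio was 54.8 (26.5 to 137.0), and for FCP against Mock 49.6 (23.9 to 124.0).

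SPINT1, for HAI-1 (chr15:40844048-40858207, plus strand), was the gene of the 7 with the smallest ratio to Mock in both aC and FCP. It was at 95 and 92.0 CPM in aC, 86.0 and 88.3 in FCP, 7.21 and 6.74 in FBG and 9.14 and 10.2 in Mock. Alone among the 7 it was lower in both FBG libraries than in both Mock libraries, with a ratio of 0.722 (0.601 to 0.865). The ratios were 9.67 (8.59 to 10.9) for aC against Mock and 9.02 (8.0 to 10.2) for FCP against Mock. Of its exon bases, 148 overlap SPINT1-AS1 on the other strand, and the counting used no strand option. SPINT1-AS1 had 27 and 24 counts in aC, 23 and 16 in FCP, 0 and 3 in FBG and 0 and 1 in Mock, against 100 or more for SPINT1 in every library.

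SPINT2, for HAI-2 (chr19:38264573-38292615, plus strand), had the highest level of the 7 in every library. It measured 309.8 and 303.4 CPM in aC, 298.4 and 298.1 in FCP, 28.0 and 28.2 in FBG and 21.1 and 19.9 in Mock. All 4 groups were separate, in the order aC, FCP, FBG, Mock. The ratio was 15.0 (13.8 to 16.3) for aC against Mock, 14.6 (13.4 to 15.8) for FCP against Mock and 1.37 (1.23 to 1.52) for FBG against Mock. The 2 Kunitz inhibitors of matriptase lay on opposite sides of Mock in the FBG libraries, although SPINT1 was not called there with GC and length trends removed.

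SERPINB5, for maspin (chr18:63476958-63505085, plus strand), was close to ST14 in its pattern. It was at 74.9 and 73.8 CPM in aC, 76.5 and 79.3 in FCP, 2.22 and 1.68 in FBG and 0.867 and 0.733 in Mock. Here the FCP libraries were the highest, and again no group overlapped another. The ratio was 93.0 (62.4 to 145.3) for aC against Mock, 97.4 (65.4 to 152.2) for FCP against Mock and 2.44 (1.49 to 4.11) for FBG against Mock.

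The RefSeq promoter table (GRCh38.p14) held entries for 2 of the 7 genes, SPINT1 with 2 start sites and SERPINB5 with 1. Their 250 bases before the start are shown because the rest of the 7 had no entry. All 7 genes were higher in aC and FCP than in Mock, so their levels did not single out these 2. Capitals mark the E-box CAGGTG, a match on the minus strand to CACCTG, the letters that ZEB and SNAIL repressors are known to read. The SERPINB5 window (chr18:63476708-63476957, plus strand) holds it, and the window before the first SPINT1 start (chr15:40843798-40844047, plus strand) does not.
SERPINB5: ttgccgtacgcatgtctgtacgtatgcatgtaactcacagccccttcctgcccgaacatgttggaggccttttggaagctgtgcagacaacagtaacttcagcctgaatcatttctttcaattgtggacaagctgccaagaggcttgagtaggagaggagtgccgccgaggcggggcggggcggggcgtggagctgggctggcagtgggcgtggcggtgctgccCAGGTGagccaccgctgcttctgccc
SPINT1, first start: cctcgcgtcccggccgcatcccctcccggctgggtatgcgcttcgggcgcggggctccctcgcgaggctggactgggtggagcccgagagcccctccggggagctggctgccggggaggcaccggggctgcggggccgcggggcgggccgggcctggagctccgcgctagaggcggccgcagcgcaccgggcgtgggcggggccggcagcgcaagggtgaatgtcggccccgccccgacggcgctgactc
The second SPINT1 start, inside the gene, also had the E-box, and the 30 bases around each match are set beside each other here (SPINT1 chr15:40844439-40844468, SERPINB5 chr18:63476920-63476949, both plus strand).
SPINT1, second start: tcccgggctgatCAGGTGtgtctcctcctc
SERPINB5: ggcggtgctgccCAGGTGagccaccgctgc
In both genes the E-box ran from 26 to 21 bases before the start. CACCTG or its reverse complement was found in 17.5% of the 35116 windows of the same length in the table. Other motifs were searched on both strands too. AACC followed directly by GGTT, a palindrome read by grainyhead-like factors, was in 0.117% of windows and in neither gene's. TGANTCA, the AP-1 motif, was in 6.57% of windows and in that of SERPINB5, 146 bases before the start. GGG, any 5 bases and CC, an NF-kB motif, was in 54.4% and in those of both genes. CACCC, a box read by KLF factors, was in 54.7% and in that of SPINT1. The NF-kB match in SERPINB5 shares a base with the E-box. The first SPINT1 window was 80.4% G or C, and the SERPINB5 window 60.0%. A match is a run of letters and says nothing about binding in these cells.

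SLPI and PI3, the WAP-domain genes, were close to the detection limit in FBG and Mock. SLPI (chr20:45252239-45254564, minus strand) had 87 and 81 counts in aC, 56 and 74 in FCP, 5 and 2 in FBG and 0 and 1 in Mock. The aC libraries were above the FCP libraries, with means of 3.55 and 2.84 CPM, and a single count stood behind the Mock level of 0.0333 CPM. The ratio was 106.6 (18.9 to 4235) for aC against Mock and 85.2 (15.0 to 3389) for FCP against Mock. For FBG against Mock it was 7.08 (0.909 to 318.9), on 7 against 1 counts.

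PI3 (chr20:45174902-45176544, plus strand) had 13 and 15 counts in aC, 16 and 17 in FCP, 0 and 1 in FBG and 0 and 1 in Mock. Only the aC and FCP libraries held more than a stray count. The ratio was 17.8 (2.94 to 726.4) for aC against Mock and 21.6 (3.62 to 879.4) for FCP against Mock, and with 1 count in all in each of FBG and Mock no ratio is given between those. PI3 and SLPI lie 75.7 kb apart in the WAP-domain gene cluster of chromosome 20, and each was the nearest tested neighbour of the other on the facing side.

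**Figure D1:**
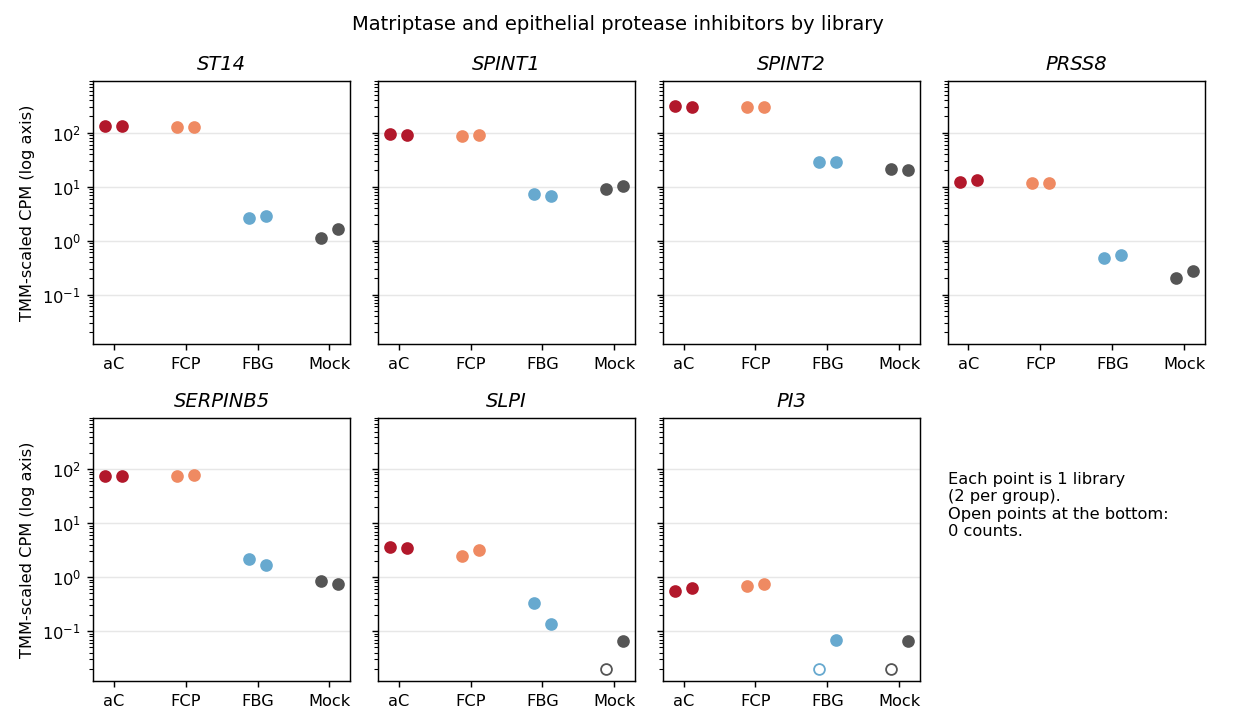
Level of each of the 7 genes in each library (points), in TMM-scaled CPM on a log axis. Groups aC, FCP, FBG and Mock run from left to right, with 2 libraries each. Open points at the bottom mark libraries without a count and do not show a level. The aC and FCP libraries lie above the FBG and Mock libraries for all 7 genes, and SPINT1 is lower in FBG (mean 6.97 CPM) than in Mock (9.67 CPM).

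Across the whole table, edgeR's quasi-likelihood test with Benjamini-Hochberg adjustment over the 16307 tested genes called 74.7% of all genes between aC and Mock, 73.4% between FCP and Mock and 50.4% between FBG and Mock. By direction, 38% were called higher and 36.7% lower in aC, and 37.3% higher and 36.1% lower in FCP, than in Mock. All 7 genes were called higher in both, beside those shares, and nothing is read from it because these values chose the genes. Without overlap between the groups, 45.6% of all genes were higher in aC and 45.1% higher in FCP than in Mock, as were all 7, and in FBG 37.8% were higher and 35.4% lower than in Mock, as were 5 and 1 of the 7. Between FBG and Mock, 5 of the 7 were also called, ST14, SPINT2, SERPINB5 and SLPI higher and SPINT1 lower, beside 24.2% of all genes called higher and 26.3% lower. DESeq2 called 4 of them and not SLPI, which was also not called without Mock replicate 1 or without FBG replicate 1, and SPINT1 was no longer called once trends with GC content and length were removed (log2 fold change -0.22, adjusted p = 0.15). The longest transcript annotated by GENCODE was 60.4% G or C for SPINT1 and 62.8% for ST14. The median of this GC content over the tested genes was 48%. The FBG fold change ran against it across 13569 genes, which are not independent replicates (Spearman's rho -0.41). The part of GC content in the FBG differences of SPINT1 and ST14 was not tested. Scaling by library size alone moved the median log2 fold change of all genes in FBG against Mock to 0.13, against 0.02 with TMM, and the calls to 5186 higher and 3010 lower, against 3941 and 4285. In FCP against Mock the same change moved the median to 0.28, against 0.06, and the calls to 7679 higher and 4493 lower, against 6085 and 5884. All 7 genes passed the filter on low counts, but PRSS8, SLPI and PI3 passed through aC and FCP, since neither FBG nor Mock had both libraries over the filter level of 0.523 CPM.

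Among all genes ranked from the highest log2 fold change of FCP against Mock, SERPINB5 stood at place 133 and ST14 at place 140 of 16307, with SPINT2 at 498 and SPINT1 at 708. These 4 genes, the ones with enough counts in all groups, kept that order in FBG against Mock, where SERPINB5 stood at 959, ST14 at 1486, SPINT2 at 3790 and SPINT1 at 14262. Both comparisons share the Mock libraries. PRSS8, SLPI and PI3 had too few counts in FBG and Mock to be placed.

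**Figure D2:**
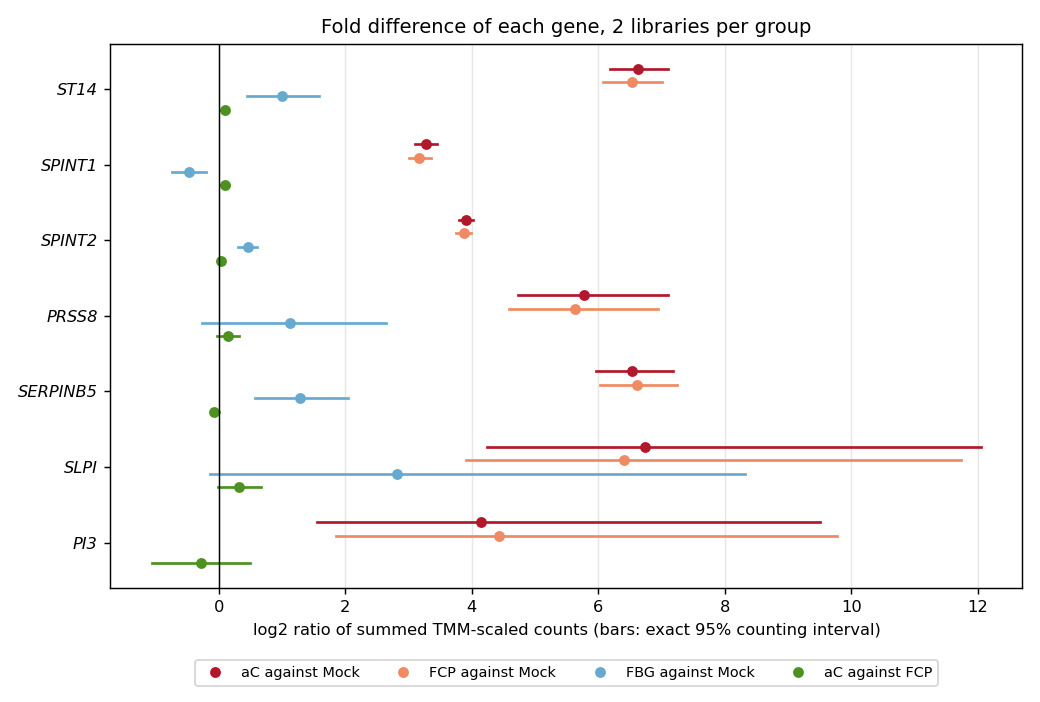
Log2 ratio of summed TMM-scaled counts for each gene, with exact 95% counting intervals, for aC, FCP and FBG against Mock and for aC against FCP (2 libraries per group). The ratios of aC and FCP to Mock lie close together for each gene, the FBG ratio is below 0 for SPINT1, and PI3 has no FBG point because each group held 1 count.

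The aC and FCP preparations were compared at the same dose and time. For ST14 the ratio of aC to FCP was 1.07 (1.03 to 1.11), for SPINT1 1.07 (1.03 to 1.12) and for SPINT2 1.03 (1.0 to 1.05). PRSS8 had a ratio of 1.11 (0.982 to 1.24) and SLPI of 1.25 (0.99 to 1.59), while SERPINB5 at 0.955 (0.911 to 1.0) and PI3 at 0.822 (0.478 to 1.4) were on the other side of 1. Thus 5 genes were higher in both aC libraries than in both FCP libraries and 2 were lower, where 26.7% of all genes were higher and 26.1% lower without overlap. None of the 7 was called by edgeR in aC against FCP, where 9.01% of all genes were (4.57% higher, 4.45% lower), although 2 of the 7 had an unadjusted p under 0.05, beside 19.8% of all genes, and DESeq2 called 0. With only the aC and FCP libraries in the fit, ST14 (log2 fold change 0.1, adjusted p = 0.0218) and SPINT1 (0.1, adjusted p = 0.0468) were called, beside 12.5% of all genes in that fit. The intervals bound any difference in ST14, SPINT1, SPINT2, PRSS8 and SERPINB5 to at most 1.24-fold as far as counting error goes. In this comparison the fitted error lay above the counting error for all 7 genes, at 0.14 against 0.09 in log2 for PRSS8. The bound is thus too narrow for the spread between libraries.

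Against intact fibrinogen, all 7 genes were higher in both preparations. For FCP against FBG the ratio was 46.1 (37.0 to 58.2) for ST14, 39.9 (30.8 to 52.6) for SERPINB5 and 22.9 (13.8 to 41.2) for PRSS8. SPINT1 reached 12.5 (10.9 to 14.4), SPINT2 10.6 (9.91 to 11.4), SLPI 12 (5.68 to 30.5) and PI3 21.4 (3.58 to 869.9). For aC against FBG the values were 49.3 (39.6 to 62.2) for ST14, 38.1 (29.4 to 50.2) for SERPINB5 and 13.4 (11.7 to 15.5) for SPINT1. The test called 66.8% of all genes in FCP against FBG and 68.3% in aC against FBG, with 32.6% and 33.8% called higher and 34.2% and 34.5% lower in the same order, and all 7 genes were called higher in both. Without overlap, 42.1% of all genes were higher in FCP and 42.7% in aC than in FBG, as were all 7.

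Per length, the balance of inhibitor to protease transcripts differed between the groups. In TPM, SPINT2 averaged 607.7 ± 7.69 in aC, 583.1 ± 0.989 in FCP, 46.9 ± 0.211 in FBG and 30.3 ± 1.23 in Mock (SD, n = 2 each). ST14 averaged 136.2 ± 0.556 TPM in aC, 125.7 ± 2.26 in FCP, 2.33 ± 0.121 in FBG and 1.03 ± 0.251 in Mock. In aC and FCP it ranked just below SPINT2, but in FBG and Mock it ranked below SPINT1 too, which was at 6.29 ± 0.304 TPM in FBG and 7.73 ± 0.609 TPM in Mock. The ratio of SPINT1 to ST14 in TPM was 0.746 and 0.721 in aC, 0.711 and 0.752 in FCP, 2.9 and 2.51 in FBG and 8.51 and 6.73 in Mock. HAI-1 transcripts were thus outnumbered by matriptase transcripts in aC and FCP libraries and outnumbered them in FBG and Mock libraries. The ratio of SPINT2 to ST14 was 4.52 and 4.41 in aC, 4.58 and 4.71 in FCP, 20.8 and 19.5 in FBG and 36.4 and 24.3 in Mock. HAI-2 transcripts outnumbered matriptase transcripts in every library.

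The ratio of PRSS8 to ST14 in TPM moved less, at 0.164 and 0.179 in aC, 0.161 and 0.17 in FCP, 0.323 and 0.343 in FBG and 0.317 and 0.3 in Mock. The FBG and Mock values rest on 3 to 8 counts of PRSS8 a library. Between the inhibitors, SPINT1 to SPINT2 stood at 0.165 and 0.164 in aC, 0.155 and 0.16 in FCP, 0.139 and 0.129 in FBG and 0.234 and 0.277 in Mock. The lowest share of HAI-1 transcripts against HAI-2 was thus in FBG and the highest in Mock.

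**Figure D3:**
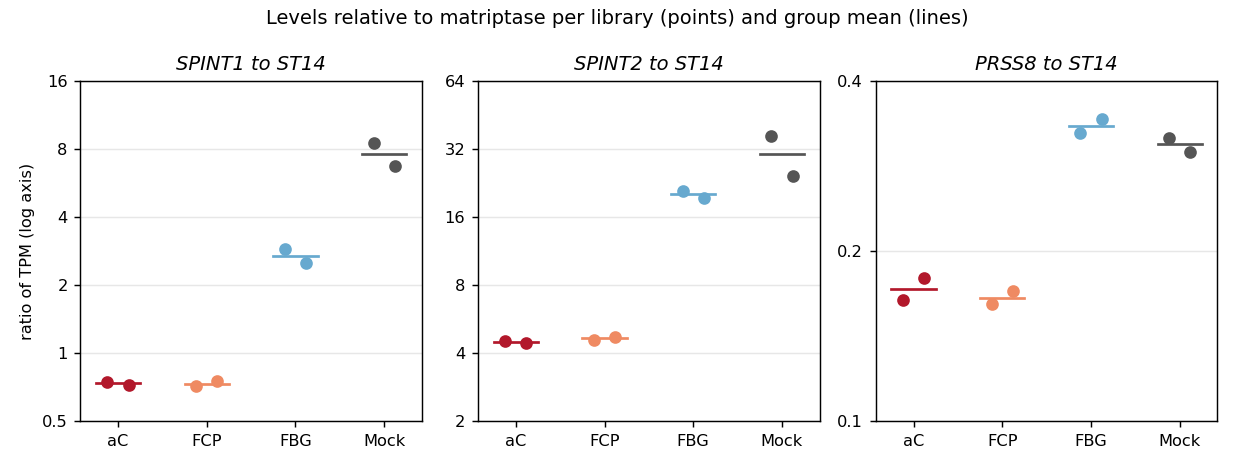
Ratio in TPM of SPINT1, SPINT2 and PRSS8 to ST14 in each library (points) with lines at the group means, on log axes that differ between the panels. SPINT1 to ST14 lies below 1 in aC (mean 0.734) and FCP (0.731) and above 1 in FBG (2.7) and Mock (7.62).

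In the full order by TPM, aC ran SPINT2, ST14, SPINT1 (99.9 ± 2.03), SERPINB5 (92.0 ± 0.77), PRSS8 (23.3 ± 1.52), SLPI (19.9 ± 0.966) and PI3 (3.6 ± 0.371), with SD over 2 libraries, and each was above the next in both libraries. In FCP, SERPINB5 (95.1 ± 2.63) and SPINT1 (91.9 ± 1.96) overlapped, while PRSS8 (20.8 ± 0.372), SLPI (15.7 ± 3.11) and PI3 (4.32 ± 0.193) followed in the same order. In FBG, ST14 and SERPINB5 (2.04 ± 0.399) overlapped, and so did SLPI (1.12 ± 0.678) and PRSS8 (0.777 ± 0.0728). In Mock, SERPINB5 averaged 0.74 ± 0.0866 TPM, and PRSS8, PI3 and SLPI could not be ordered among themselves. All 7 together summed to 976.3 to 989.0 TPM in aC, 931.6 to 941.5 in FCP, 59.1 to 60.2 in FBG and 40.4 to 40.5 in Mock. SPINT2 made up 61.7 to 62.0% of that sum in aC, 62.0 to 62.5% in FCP, 77.7 to 79.6% in FBG and 72.8 to 77.2% in Mock.

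Likeness of pattern was measured as the root mean square difference of log2 CPM, centred on each gene's own mean, over the 8 libraries. ST14 and SERPINB5 were the closest pair among the 7, at 0.25, and SPINT1 and SPINT2 came next at 0.35. The distances of PRSS8, SLPI and PI3 depend on the prior count in FBG and Mock, where they had 0 to 8 counts a library. Among 11742 other genes (11743 for SLPI and PI3) with a mean count of at least 50, the nearest to ST14 were MARVELD3 at 0.174, SYK at 0.174 and AFAP1-AS1 at 0.178. MARVELD3, a tight junction protein gene, was also the nearest to SERPINB5 at 0.153, followed by MAL2 at 0.156 and TNS4 at 0.226. For PRSS8 the nearest were AQP3, a water and glycerol channel, at 0.109, then ARHGEF4 at 0.163 and COL16A1 at 0.179. SPINT1 was nearest to LMTK3 at 0.113, BNC1, a transcription factor of keratinocytes, at 0.128 and C3, the complement component, at 0.176. SPINT2 was nearest to COL7A1, a collagen chain that itself carries a Kunitz domain, at 0.122, then C6orf141 at 0.132 and COL27A1 at 0.174. The nearest to SLPI were HOXA3, ZNF471 and AFAP1L2 at 0.2 to 0.255, and the nearest to PI3 were GRAMD2A, ZNF418 and ABLIM3 at 0.205 to 0.234. MARVELD3 averaged 21.3 CPM in aC, 21.2 in FCP, 0.472 in FBG and 0.167 in Mock, and COL7A1 418.4, 366.7, 33.3 and 29.8 CPM in the same order. SYK averaged 15.0, 15.7, 0.202 and 0.0333 CPM in that order, below the floor in Mock. The distances of MARVELD3, SYK and other genes this low in FBG and Mock thus depend on the prior count too. Their fold changes can differ from that of the gene they are near by more than the distance shows.

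Apart from SLPI and PI3 themselves, the neighbouring genes named here had smaller log2 fold changes than they did. APLP2 and ZBTB44, on either side of ST14, had log2 fold changes of -0.04 and 0.69 in FCP against Mock, against 6.52 for ST14. ZFYVE19 and RHOV, beside SPINT1, stood at -0.12 and 0.24 and were not called. Beside SPINT2, PPP1R14A was called higher at 2.41 and YIF1B lower at -0.96. KAT8, which lies 40 bases from PRSS8, was called lower at -0.39. VPS4B, below SERPINB5, was called higher at 0.44. SERPINB13, above it, had 32 counts in aC, 13 in FCP, 0 in FBG and 2 in Mock. It was called higher in aC than in Mock, with a ratio of 10.2 (2.59 to 87.4). SDC4, beyond SLPI, was at -0.28 in FCP and 0.48 in aC against Mock.

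Other membrane-anchored and epithelial serine proteases were mostly silent. Of 21 listed, 11 had at most 3 counts in every library, and 7 were tested, of which 3 were higher and 2 lower in FCP than in Mock (median log2 fold change 0.13, against 0.06 over all genes). PRSS3, a trypsinogen gene with close relatives that can share its reads, rose (log2 fold change 1.88 ± 0.23 SE, edgeR adjusted p = 1.4e-07), with 6.12 and 6.63 CPM in FCP and 1.87 and 1.6 in Mock. TMPRSS3 fell (-3.47 ± 0.77, adjusted p = 6.2e-05), on 4 counts in FCP and 31 in Mock. PRSS23, a secreted protease, fell in both FCP (-1.24 ± 0.027, adjusted p = 6e-21) and FBG (-0.57 ± 0.027, adjusted p = 4.6e-14). It was the only listed protease called in FBG against Mock with all libraries, while 2 were called lower without FBG replicate 1 or 2 and 1 higher without Mock replicate 1. TMPRSS5 (1.45 ± 0.61) and TMPRSS9 (1.10 ± 0.52) rose in FCP on 34 and 33 counts, but DESeq2 called only 1 gene of the list higher. Of 12 kallikrein-related peptidases, proteases that form cascades in skin, 9 had no count in any library and none could be tested.

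A list was also drawn up of genes whose proteins matriptase or prostasin is known to cut or act on. Of 17 tested, 13 were higher and 3 lower in FCP than in Mock, with a median log2 fold change of 1.45 against 0.06 over all genes. LAMB3, a laminin chain of the epithelial basement membrane, was at 431.8 and 434.6 CPM in FCP and 0.667 and 1.07 in Mock (8.95 ± 0.28, edgeR adjusted p = 2.9e-30). EPCAM, an epithelial adhesion protein cut by matriptase, was at 134.9 and 142.7 CPM in FCP, against 2.13 and 2.8 in Mock (5.81 ± 0.17, adjusted p = 9.7e-25). CLDN7, the claudin that EPCAM binds, had 142 counts in the FCP libraries and 0 in the Mock libraries, at least 31.0-fold higher, with a second annotated copy that can take some of its reads. SCNN1A, the alpha subunit of the epithelial sodium channel that prostasin activates, was at 162.0 and 162.1 CPM in FCP, against 14.3 and 13.4 in Mock (3.55 ± 0.073, adjusted p = 2.1e-25).

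Receptors on this list rose as well. F2RL1, for the protease-activated receptor that matriptase can switch on, rose by 1.19 ± 0.15 in FCP against Mock (log2 fold change ± SE, edgeR adjusted p = 6.6e-05). MST1R rose by 3.16 ± 0.11 (adjusted p = 9.4e-15) and MET, the receptor of hepatocyte growth factor, by 0.94 ± 0.038 (adjusted p = 1.1e-16). The 3 that fell were IGFBP7 (-1.31 ± 0.026), PDGFC (-1.29 ± 0.041) and PDGFD (-1.51 ± 0.29), all secreted. With FBG the list split, with 8 higher and 6 lower than in Mock and a median of 0.18 (0.02 over all genes). EPCAM (1.34 ± 0.2), SCNN1A (1.22 ± 0.085), LAMB3 (1.54 ± 0.33) and F2RL1 (0.8 ± 0.16) rose, while CDCP1 (-1.81 ± 0.11), a membrane protein cut by matriptase, and PLAU (-0.86 ± 0.083), the urokinase gene, fell. DESeq2 called 5 of the list higher there.

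Of 13 other genes with a Kunitz domain 7 were tested, and 1 was higher and 5 lower in FCP than in Mock (median -0.59, against 0.06). COL7A1 rose (3.62 ± 0.05, edgeR adjusted p = 6.7e-28), while TFPI2 (-1.10 ± 0.046), TFPI (-0.90 ± 0.053), an inhibitor of the tissue factor pathway of clotting, and APP (-0.59 ± 0.014) fell. Under scaling by library size alone 2 were called higher. For intact fibrinogen, 2 were higher and 4 lower in FBG than in Mock, with TFPI2 at 0.27 ± 0.045 and TFPI at -0.46 ± 0.053, and 1 was called higher by DESeq2 or with either Mock library or FBG replicate 1 left out.

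Of 15 listed genes of the WAP-domain cluster and its relatives, 14 had at most 3 counts in every library and 10 had none. WFDC2, the exception, had 70 and 69 counts in aC, 44 and 43 in FCP, 1 and 2 in FBG and none in either Mock library. It was at least 29.4-fold higher in aC and at least 19.0-fold higher in FCP than in Mock, taking 3 counts over both Mock libraries as the floor. In FBG it did not pass the floor.

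Of 9 tested clade B serpins beside SERPINB5, 5 were higher and 2 lower in FCP than in Mock (median 1.19). SERPINB3 and SERPINB4, squamous cell carcinoma antigens so alike in sequence that their reads may be split uncertainly, had 611 and 168 counts in FCP against 14 and 2 in Mock. The ratio for SERPINB3 was 28.6 (16.9 to 52.6), and for SERPINB4 55 (15.0 to 458.1). SERPINB2, an inhibitor of plasminogen activators, rose in FCP (1.88 ± 0.43, edgeR adjusted p = 4.2e-05) and fell in FBG on 3 against 13 counts (-2.03 ± 0.92, adjusted p = 0.022), a call not made by DESeq2, with only the FBG and Mock libraries in the fit, or without Mock replicate 1 or FBG replicate 1. With GC and length trends removed 3 of the list were called lower in FBG. SERPINB6 (-0.23 ± 0.035) and SERPINB9 (-0.31 ± 0.062) fell slightly in FCP, and under scaling by library size alone neither was called lower. DESeq2 called 3 of the list higher in FCP.

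In aC against FCP, 5 of the 9 tested clade B serpins were called higher and 0 lower, beside 4.57% of all genes higher and 4.45% lower. ST14 and its inhibitors were not called there with all libraries in the fit, though ST14 and SPINT1 were with only that pair. SERPINB2 was at 3.43 and 4.86 CPM in aC and 1.7 and 1.53 in FCP (1.36 ± 0.27, edgeR adjusted p = 0.0016). SERPINB3 was at 24 and 25.1 CPM in aC and 14.3 and 12.4 in FCP (0.88 ± 0.18, adjusted p = 0.016). With any single aC or FCP library left out 1 or 2 genes of the list were called higher, and 1 with DESeq2.

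Among Kazal, cystatin and other inhibitors, 7 of 17 were tested, and 3 were higher and 3 lower in FCP than in Mock (median 0.43). SERPINA3, an inhibitor of cathepsin G, rose by 2.84 ± 0.19 (edgeR adjusted p = 3.2e-06), and CSTA, a cystatin of squamous epithelia, by 1.91 ± 0.18 (adjusted p = 3.3e-10). SERPINA1, which inhibits neutrophil elastase as SLPI does, had 172 counts in FCP and 5 in Mock (4.44 ± 0.65), with a second annotated copy that can take some of its reads. CST3 (-0.85 ± 0.037), CSTB (-0.86 ± 0.05) and CST6 (-0.70 ± 0.098), cystatins that inhibit cysteine proteases, fell in FCP. The same 3 fell in FBG against Mock, with log2 fold changes of -0.56 ± 0.038, -0.21 ± 0.05 and -1.21 ± 0.1, and LXN, a latexin, rose (1.00 ± 0.2). SERPINA3 was also higher in aC than in FCP (0.90 ± 0.15, adjusted p = 0.011), at 41.7 and 44.6 CPM in aC and 24.3 and 22.0 in FCP, but none of the 3 inhibitors called there was called with any single library left out.

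Leukocyte proteases, the targets of SLPI and elafin among them, were nearly absent from the counts. ELANE, PRTN3, CTSG and AZU1 had 0 counts in all libraries, as did 6 of the 8 listed, although genes with a second annotated copy, ELANE among them, can lose reads to it. CPA3, a mast cell carboxypeptidase, was the only one tested and fell to 0.0874 and 0.0437 CPM in FCP, against 4.33 and 3.66 in Mock (-5.80 ± 0.84, edgeR adjusted p = 7.1e-11). In FBG it was at 2.29 and 1.62 CPM (-1.03 ± 0.3, adjusted p = 0.0059), a call not made by DESeq2 nor without Mock replicate 1 or FBG replicate 2. Other airway secretory and host defence products were scarce, with 12 of 16 at 3 counts or fewer in every library. S100A9 had 175 counts in FCP against 2 in Mock, a ratio of 57.3 (15.6 to 477.0), and LCN2 46 against 2, a ratio of 15.1 (3.94 to 128.1). MUC1, a membrane mucin, rose in FBG (1.25 ± 0.15, adjusted p = 2.1e-07), at 11.5 and 10.1 CPM in FBG and 4.47 and 4.6 in Mock, and was at 0.21 ± 0.15 in FCP against Mock (adjusted p = 0.21).

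Most listed transcription and splicing factors of epithelia were higher in FCP. Of 12 tested, 8 were higher and 1 lower than in Mock, with a median log2 fold change of 3.46, or 1.95 with genes at 0 counts in Mock set to their bound. TP63, the master factor of basal cells, had 3631 counts over the FCP libraries against 2 over the Mock libraries, which is a ratio of 1189 (329.0 to 9824). ESRP1, a splicing factor of epithelial transcripts, was at 84.5 and 81.6 CPM in FCP and 0.2 and 0.133 in Mock (8.91 ± 0.65, edgeR adjusted p = 1.5e-24). GRHL2, a grainyhead-like factor of epithelial identity, had 990 counts in FCP and 0 in Mock, at least 216.2-fold higher. KLF5 fell slightly (-0.43 ± 0.046, adjusted p = 1.3e-08).

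In FBG against Mock, 3 of these 12 were higher and 0 lower. GRHL2 had 12 counts in FBG and 0 in Mock, at least 4.04-fold higher, ESRP1 had 21 against 5 (2.04 ± 0.72, edgeR adjusted p = 0.0029), and KLF5 rose by 0.18 ± 0.046. Removing trends with GC content and length raised this count to 5. In aC against FCP, 5 were higher and 1 lower (0 lower with DESeq2 or with any single aC or FCP library left out), with KLF4 at 1.00 ± 0.16 (adjusted p = 1.7e-04), ELF3 at 0.85 ± 0.13 and EHF at 1.86 ± 0.34 among the higher.

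Repressors of epithelial genes did not move as a group. Of 5 tested, 1 was higher and 2 lower in FCP than in Mock. SNAI2 rose with the epithelial genes (4.48 ± 0.26, edgeR adjusted p = 7.6e-17), at 22.8 and 23.6 CPM in FCP against 0.8 and 1.27 in Mock. ZEB2 fell (-1.65 ± 0.087) and TWIST1 fell (-0.69 ± 0.095), while ZEB1 stood at 0.00 ± 0.081 (adjusted p = 0.98). ZEB1 rose in FBG against Mock (0.86 ± 0.081, adjusted p = 6.4e-09), at 32.2 and 31.3 CPM in FBG and 17.1 and 17.9 in Mock, and SNAI2 by 1.30 ± 0.31.

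**Figure D4:**
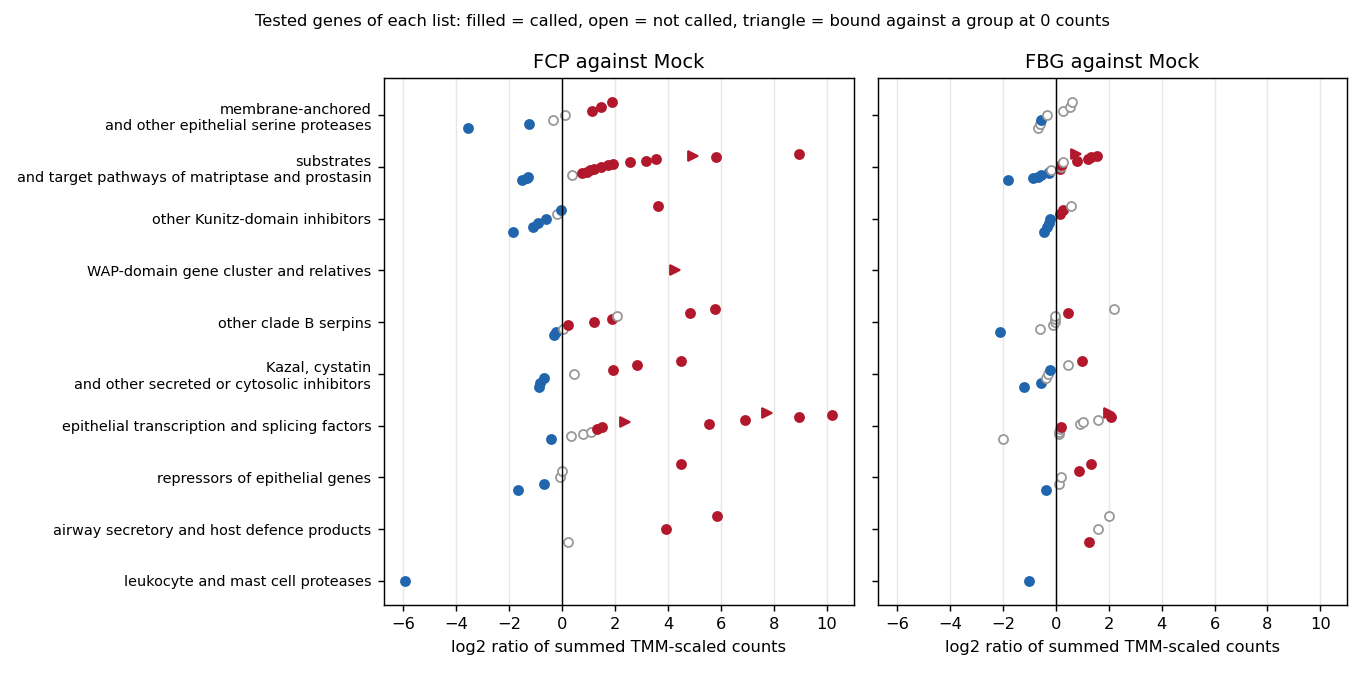
Log2 ratio of summed TMM-scaled counts for each tested gene of 10 lists, FCP against Mock on the left and FBG against Mock on the right, filled where edgeR called the gene, open where it did not, and triangles for bounds against a group at 0 counts. Genes with 3 counts or fewer in both groups are left out. Substrates and epithelial factors lie mostly right of 0 in FCP, and other Kunitz-domain genes mostly left of it.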

How the data were processed

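RNA libraries of BEAS-2B cells, 8 in all, were grouped by their labels. The deposited tables hold unnormalised counts of paired reads over exons on GRCh38.p14. The authors counted with featureCounts and set neither a strand nor a multi-mapping option, per the file headers. Its version reads 1.6.0 in the headers but 1.6.2 in the submitters' processing notes, which also name Trimmomatic 0.39, HISAT2 2.2.1 and SAMtools 1.9, with no role stated. Counts were tested with edgeR 4.0.16 in R 4.3.3 (TMM, filterByExpr with a minimum count of 10, robust quasi-likelihood, 8 libraries in 1 fit, 4 residual degrees of freedom), after the fit was tested on simulated data. P-values were two-sided and adjusted by Benjamini-Hochberg within each of 6 comparisons, with genes called under 0.05. DESeq2 1.42.0 was an alternative. Standard errors of log2 fold changes are the larger of the fitted and the counting error, since for 7 of the 7 genes the fitted error lay below the counting error in 5 comparisons and for 0 in aC against FCP. Exact intervals came from SciPy 1.17.1. TPM was computed from the counts and the files' exon lengths. The 7 genes and 17 gene lists were chosen with earlier results of these data known. From each list up to 3 called genes per direction with the smallest p are named for FCP and for FBG against Mock, with the 3 genes nearest in pattern to each of the 7, and other genes named were chosen after their values were seen. Likeness used a prior count of 2.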

Additional observations from a re-analysis of the deposited data

How the results depend on the processing

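Of the fold changes of the 7 genes, 70 of 70 alternatives gave the same direction and call in each of FCP and aC against Mock and FCP and aC against FBG. Nothing is read from that agreement, because these values chose the genes. PRSS8, SLPI and PI3 also passed the filter on low counts only through aC and FCP. In FBG against Mock 59 of 67 gave the same direction and call. SLPI was no longer called with DESeq2 (log2 fold change 2.79, adjusted p = 0.165), with no filter on low counts (2.6, 0.0835), without Mock replicate 1 (1.73, 0.283) or without FBG replicate 1 (1.83, 0.364). SPINT1 was not called with GC and length trends removed (-0.22, 0.15). PI3, on 1 count in each group, turned to -0.02 with DESeq2 and to -0.87 without Mock replicate 1, within a range of -2.65 (without FBG replicate 2) to 2.66 over the 4 left-out libraries. In aC against FCP, 1470 genes were called, 868 with DESeq2 and 853 to 909 without 1 aC or FCP library, and 2 of the 7 genes with only that pair in the fit. With the replicate number as a block the calls were 8128 (FBG against Mock), 11906 (FCP against Mock), 12130 (aC against Mock), 10835 (FCP against FBG), 11086 (aC against FBG) and 1410 (aC against FCP), and the calls among the 7 were 5, 7, 7, 7, 7 and 0. Deviations of same-numbered libraries correlated at -0.075 to 0.065. The 2 libraries of a group differed little beyond counting error (mean chi-square per gene 1.256 to 1.344, against 1 for counting error alone). Whether the numbers mark a pairing can thus not be told from these correlations. Of 2040 counts recomputed for the gene lists, 1924 stayed within 1.5 times and 116 did not. Without dividing by length, the ratio of SPINT2 to ST14 was 2.28 in aC, 2.37 in FCP, 10.3 in FBG and 15.5 in Mock, and that of SPINT1 to ST14 0.695 in aC and 0.693 in FCP. Changes in the list counts in FCP against Mock were 1 higher among the serine proteases with DESeq2 and without FCP replicate 1 or 2 or Mock replicate 2, 2 higher among Kunitz genes and repressors with library size only or GC and length trends removed, 3 higher among clade B serpins with DESeq2 and 0 lower with library size only. The causes were not tested. Depth limits PRSS8, SLPI and PI3, which had 0 to 8 counts a library in FBG and Mock, and intervals cover counting error only.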
